A study of Mus musculus with 16 samples.

Results

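The Myc network and the Pim kinases were followed through 7 transcripts in splenic B cells of mice fed 4 diets: Myc, its partner Max, the Max-binding antagonists Mxd1 and Mxi1, and the kinases Pim1, Pim2 and Pim3. The members were taken by gene symbol from the count table, as 7 of its 39179 genes, and all 7 passed the filter on low counts that kept 15021 genes for testing. The B cells came from NOD.LT mice, an inbred line prone to autoimmune diabetes, aged 15 weeks and fed their diet freely for the last 5 weeks. There were 4 libraries for each of the diets HAMSA, HAMSB, HAMS and NP, and the protocol names the NP feed Gordons. As background, HAMS is high-amylose maize starch, which gut bacteria ferment to short-chain fatty acids, and HAMSA and HAMSB are its acetylated and butyrylated forms. The cells were purified by magnetic negative selection, so cells that escape the antibodies stay in the preparation, and poly(A) RNA was made into stranded libraries. The labels do not tie the library numbers to animals, so the p-values measure the spread between these libraries.

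Myc is a transcription factor that binds DNA only when paired with Max, at the E-box CACGTG, and drives genes of growth, ribosome assembly and the cell cycle. Mxd1 and Mxi1 compete with Myc for Max and repress genes at the same sites. Pim kinases are serine/threonine kinases that need no activating phosphorylation, so their activity follows the amount of protein, which cytokines raise through JAK-STAT signalling. In lymphocytes they promote survival and cap-dependent translation, and Pim1 and Pim2 are known to cooperate with Myc in mouse lymphoma.

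Max and Pim3 were the members whose transcripts differed between diets, so the reference sequence around their starts is shown first. Each run holds 250 bases before and 20 bases after the RefSeq start on GRCm38.p6, the genome of C57BL/6J and not of NOD, written 5′ to 3′ on the strand of the gene. Capitals mark the motifs searched on both strands, which were the E-box CACGTG, the cyclic AMP element TGACGTCA, the heat shock element GAANNTTC, the STAT element TTCNNNGAA, the GC-box GGGCGG and the CCAAT box CCAAT. The Max window is chr12:76962229-76962498 on the minus strand and the Pim3 window is chr15:88861944-88862213 on the plus strand.
Max: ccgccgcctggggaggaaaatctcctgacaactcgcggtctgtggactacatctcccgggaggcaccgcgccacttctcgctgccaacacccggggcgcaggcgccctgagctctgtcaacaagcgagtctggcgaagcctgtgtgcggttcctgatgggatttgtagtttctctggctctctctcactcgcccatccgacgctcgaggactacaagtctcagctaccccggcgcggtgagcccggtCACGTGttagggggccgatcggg
Pim3: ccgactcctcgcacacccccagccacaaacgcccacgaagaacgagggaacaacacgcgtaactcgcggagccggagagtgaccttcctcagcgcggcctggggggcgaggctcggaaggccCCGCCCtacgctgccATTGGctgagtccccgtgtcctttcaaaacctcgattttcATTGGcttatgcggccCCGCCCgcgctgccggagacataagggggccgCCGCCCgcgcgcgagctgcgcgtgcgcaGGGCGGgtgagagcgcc
The Max window held 1 E-box, which spanned the start with its first base at position -3, and none of the other motifs. Of 32851 RefSeq promoter windows of the same length, 6.57% held an E-box. The Pim3 window held 4 GC-boxes and 2 CCAAT boxes and none of the other motifs, where 34.1% of all windows held a GC-box and 35.4% a CCAAT box. Of the remaining motifs, the cyclic AMP element was in 1.73% of all windows, the heat shock element in 7.21% and the STAT element in 7.58%. RefSeq windows were matched for 6 of the 7 members, Myc being the exception. An E-box was also present in the window of 1 of the Pim1 starts, at position -58, and in no window of Mxd1, Mxi1 or Pim2.

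Total counts were 15053965 to 30723337 in HAMSA libraries, 34720317 to 46206200 in HAMSB, 31826691 to 37929476 in HAMS and 31707731 to 42752976 in NP. Each member had at least 271 counts in every library, the fewest being those of Mxi1, with 271 to 765, so counting error is part of the spread between libraries. The 8 B cell markers summed to 10547 to 13145 CPM, the count scaled to library size, and were high in all 16 libraries. Markers of other cell types were detected too, and their summed levels varied between libraries and diets. The 9 macrophage markers summed to 80.2 to 132 CPM in HAMSA, 49.7 to 109 in HAMSB, 35.7 to 80.9 in HAMS and 145 to 281 in NP. The 11 erythroid genes summed to 587 to 6505 CPM in HAMSA, 98.4 to 1622 in HAMSB, 116 to 202 in HAMS and 127 to 1527 in NP. The 9 neutrophil markers summed to 76.6 to 316 CPM in HAMSA, 41.6 to 249 in HAMSB, 5.38 to 109 in HAMS and 8.69 to 61.9 in NP. With edgeR 8 macrophage markers were called lower in HAMS against NP, beside 2.06% of all genes. In HAMSB against NP 1 was, beside 0.0732%. Of the neutrophil markers 1 was called higher, in HAMSA against NP, beside 0.606% of all genes. None of the erythroid genes tested was called in any pair. The part of these cells in the members' values was not tested.

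Per kb of annotated exon, which allows levels to be compared between genes, Max was the most abundant member with a mean of 38.3 CPM per kb over the 16 libraries. Pim2 followed with 36.0 and Myc with 34.8 CPM per kb, and the ranges of these 3 genes over libraries overlapped. Pim3 averaged 14.3 and Pim1 13.1 CPM per kb, with overlapping ranges. The antagonists were the scarcest, with Mxd1 at 4.11 and Mxi1 at 2.56 CPM per kb, and the lowest Mxd1 library, at 3.12, lay above the highest Mxi1 library, at 3.03. Within diets, Max varied least, with a standard deviation of 0.084 on the log2 scale, and Pim1 varied most, with 0.24.

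**Figure D1:**
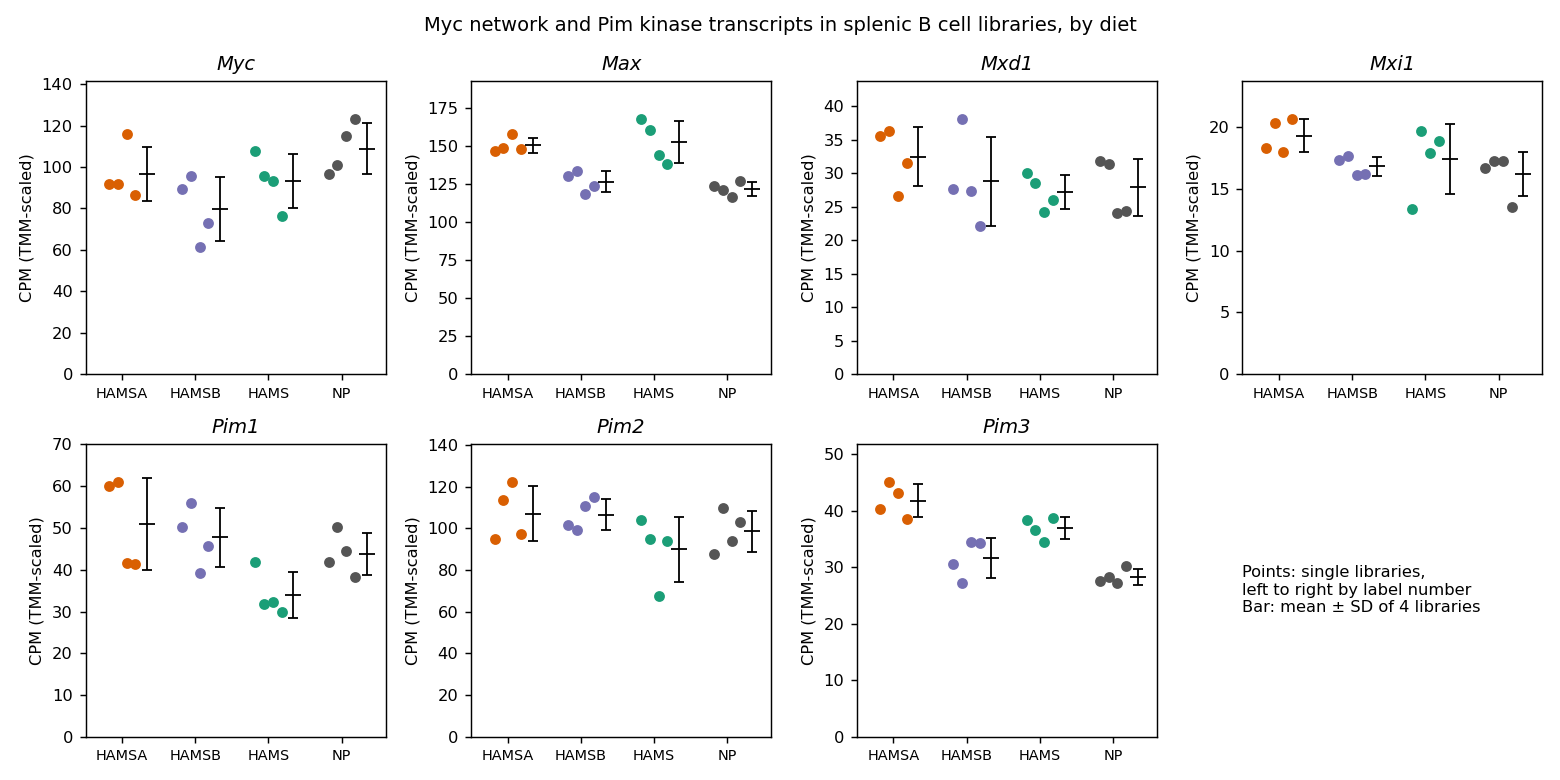
Level of each of the 7 transcripts (vertical axis, TMM-scaled CPM) in every library, grouped by diet along the horizontal axis, with bars for the mean and SD of 4 libraries. All HAMSA and HAMS points of Max and Pim3 lie above all NP points.

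In edgeR's quasi-likelihood test for any difference among the 4 diets, 2 of the 7 members passed, against 3.78% of all genes tested, and 22% of genes had an unadjusted p under 0.05. They were Pim3, with an adjusted p of 0.00734, and Max, with an adjusted p of 0.0301. When each library was left out in turn, Pim3 kept this call in 16 of 16 fits. Max kept it in 6 of 16, with an adjusted p of up to 0.0935 (edgeR). Over these fits 1.7 to 4.61% of all genes were called. Over the 6 pairs of diets, 42 member tests gave 4 calls, all of them higher levels of Pim3 or Max, and 38 tests did not pass. The comparisons against NP share the NP libraries and those among the starches share the HAMSA, HAMSB and HAMS libraries, so they are not independent.

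Max, the partner that Myc and its antagonists all require, was higher in HAMS and HAMSA libraries. It lies on chromosome 12 at 76937269 to 76962201 on the minus strand (GRCm38), and the predicted gene Gm47218 overlaps it on the same strand. Max had 147, 149, 158 and 148 CPM in the HAMSA libraries, 130, 134, 118 and 124 CPM in HAMSB, 168, 161, 144 and 138 CPM in HAMS, and 124, 121, 116 and 127 CPM in NP. All HAMSA and HAMS libraries lay above all HAMSB and NP libraries, while HAMSA and HAMS overlapped each other, as did HAMSB and NP. In HAMS against NP, Max averaged 153 ± 13.8 CPM in HAMS and 122 ± 4.64 CPM in NP (SD, n = 4 each), a log2 fold change of 0.32 ± 0.08 (SE) with an adjusted p of 0.0254 in edgeR's quasi-likelihood test. The difference in HAMSA against NP had nearly the same size, 0.30 ± 0.08 on the log2 scale, and did not pass (adjusted p of 0.0581, edgeR). HAMSA against HAMS gave a log2 difference of -0.02, with a 95% interval of -0.18 to 0.14.

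Among the starches Max also separated the diets without passing the test over all genes. In HAMSB against HAMS the log2 fold change was -0.27 ± 0.08 with an adjusted p of 0.0979 (edgeR), and the libraries did not overlap. HAMSA against HAMSB gave 0.25 ± 0.08 with an adjusted p of 0.134 (edgeR), again without overlap. DESeq2, run as an alternative, called both, with adjusted p of 0.00596 and 0.0282. It called more genes in general, 3.92% and 3.56% of all genes in these pairs, against 1.68% and 0.779% with edgeR. HAMSB against NP gave 0.05, with a 95% interval of -0.11 to 0.21. The call in HAMS against NP was lost in 5 of 16 omissions of a library, namely HAMS 1, HAMS 4, NP 3, NP 4 or NP 5. In those fits 1.55 to 3.68% of all genes were called, the adjusted p was 0.0535 to 0.0981 (edgeR) and the log2 fold change 0.27 to 0.33. Within libraries numbered 1 to 4 it was 0.45, and within those numbered 5 and 6, where NP had a single library, it was 0.14, too few libraries for a useful test.

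Pim3, a Pim kinase best known from metabolic tissues and tumours, showed the clearest differences of the 7 members. It lies on chromosome 15 at 88862186 to 88865726 on the plus strand, with no overlapping gene in the annotation. Pim3 had 40.3, 45.1, 43.1 and 38.5 CPM in the HAMSA libraries, 30.6, 27.2, 34.5 and 34.4 CPM in HAMSB, 38.3, 36.5, 34.5 and 38.8 CPM in HAMS, and 27.6, 28.3, 27.2 and 30.3 CPM in NP. All HAMSA and HAMS libraries lay above all NP libraries, and all HAMSA libraries lay above all HAMSB libraries. HAMSB 5 and the lowest HAMS library, HAMS 5, both stood at 34.5 CPM, so that HAMSB and HAMS just overlapped. As in any bulk sample, fewer cells that express a gene and less of its RNA per cell cannot be told apart.

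In HAMSA against NP, Pim3 averaged 41.8 ± 2.93 CPM in HAMSA and 28.3 ± 1.37 CPM in NP, a log2 fold change of 0.56 ± 0.09 with an adjusted p of 0.0211 (edgeR), and it ranked 6 by p among all genes tested. In HAMS against NP it averaged 37.0 ± 1.94 CPM in HAMS, and the log2 fold change was 0.39 ± 0.09 with an adjusted p of 0.0220 (edgeR). HAMSA against HAMSB gave 0.40 ± 0.09 with an adjusted p of 0.0499 (edgeR), just inside the threshold, from means of 41.8 ± 2.93 CPM in HAMSA and 31.7 ± 3.51 CPM in HAMSB. The other pairs did not pass. HAMSA against HAMS gave 0.17 with a 95% interval of -0.02 to 0.36, HAMSB against HAMS gave -0.23 with an interval of -0.41 to -0.04, and HAMSB against NP gave 0.16 with an interval of -0.03 to 0.35.

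The 3 Pim3 calls differed in how many omissions of a library kept them, and the calls over all genes moved with the omissions too. HAMSA against NP was called in 12 of 16 omissions, and was lost without HAMSA 2, NP 3, NP 4 or NP 5 at log2 fold changes of 0.52 to 0.57. In those fits the calls over all genes fell from 212 to 1, 4, 0 and 3. HAMS against NP was called in 11 of 16 and was lost without HAMS 1, HAMS 4, HAMS 6, NP 3 or NP 4 at 0.36 to 0.39. There 1.55 to 3.68% of all genes were called, against 4.33% with all libraries. HAMSA against HAMSB was called in 1 of 16 omissions, without HAMSA 6, where 1.22% of all genes were called. Its highest adjusted p was 0.179 (edgeR) without HAMSA 2, where 0.118% were. Within libraries numbered 1 to 4 the Pim3 log2 fold changes were 0.64 in HAMSA against NP, 0.43 in HAMS against NP and 0.58 in HAMSA against HAMSB. Within those numbered 5 and 6, where NP and HAMSA had a single library each, they were 0.34 in HAMSA against NP, 0.27 in HAMS against NP and 0.16 in HAMSA against HAMSB. There the other groups give the spread, so a missed threshold says little. Reads outside exons made up 9.76 to 12.1% in HAMSA libraries and 11.2 to 16.9% in the other diets. With this share as a covariate, Pim3 in HAMSA against NP was 0.61 with an adjusted p of 0.0813 (edgeR). In that fit 9 of 15021 genes were called in HAMSA against NP, against 212 in the main fit.

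In each comparison the count of members called was read beside the share of all genes called. HAMS against NP gave 2 of 7 members, both higher, against 4.33% of genes, of which 2.27% were higher and 2.06% lower. HAMSA against NP gave 1 of 7, higher, against 1.41% of genes, 0.606% higher and 0.806% lower. HAMSA against HAMSB gave 1 of 7, higher, against 0.779% of genes, 0.586% higher and 0.193% lower. None of the members passed in HAMSB against HAMS, where 1.68% of genes did (0.433% higher and 1.24% lower), or in HAMSB against NP, where 0.0732% did, all lower. In HAMSA against HAMS no gene at all passed with edgeR, although 1751 genes, 11.7%, had an unadjusted p under 0.05 and DESeq2 called 103. An unadjusted p under 0.05 was reached by 3 members in HAMSB against HAMS (Max, Pim1 and Pim3), where 14.1% of genes reached it. It was reached by 1 in HAMSA against HAMS (Pim1) and by 1 in HAMSB against NP (Myc), where 6.89% of genes did. In HAMSA against HAMSB, HAMS against NP and HAMSA against NP it was reached by 2, 3 and 2 members, and by 19.4%, 19.3% and 25.1% of genes. DESeq2 called 1 member in HAMSB against HAMS, beside 3.92% of all genes. It called 0 in HAMSA against HAMS, beside 0.686%, and 0 in HAMSB against NP, beside 0.826%. Groups of libraries without overlap were found for 10 of the 42 member tests, with 3 members each in HAMSA against NP, where 16.4% of all genes separated, and HAMSA against HAMSB, where 8.81% did. There were 2 in HAMS against NP beside 12.6% of genes, 1 in HAMSB against HAMS beside 7.3%, 1 in HAMSB against NP beside 5.27%, and 0 in HAMSA against HAMS beside 4.01%.

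**Figure D2:**
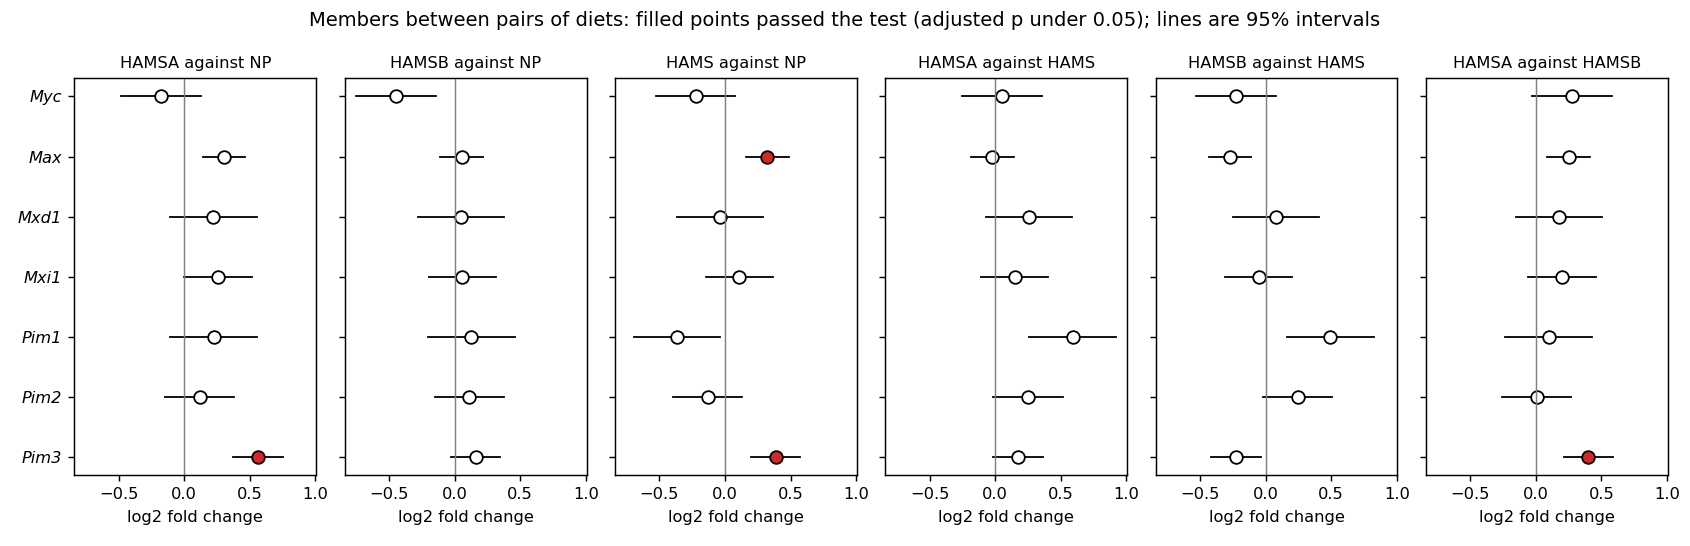
Log2 fold change (horizontal axis) of each member (rows) in the 6 pairs of diets (panels), with 95% intervals as lines and filled points where the adjusted p was under 0.05. The filled points are Pim3 in HAMSA against NP, HAMS against NP and HAMSA against HAMSB, and Max in HAMS against NP.

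Myc itself did not pass in any pair. It lies on chromosome 15 at 61985391 to 61990374 on the plus strand, and its values ran the other way from those of Max in the comparisons with NP. Myc had 91.6, 92.0, 116 and 86.6 CPM in the HAMSA libraries, 89.2, 95.6, 61.2 and 72.9 CPM in HAMSB, 108, 95.6, 93.4 and 76.2 CPM in HAMS, and 96.5, 101, 115 and 123 CPM in NP. The HAMSB libraries lay below all NP libraries, and HAMSA and HAMS overlapped NP. In HAMSB against NP, where 5.27% of all genes separated, the log2 fold change was -0.45 ± 0.14 with an adjusted p of 0.389 (edgeR) and a 95% interval of -0.75 to -0.14. HAMSA against NP gave -0.17 and HAMS against NP gave -0.22, and both intervals included 0.

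Within single libraries, the ratio of Myc to Max separated NP from the starch diets. This ratio of reads per kb does not depend on how libraries are scaled, and it was formed after the levels of both genes were known, so it is given as a description. It was 0.826, 0.818, 0.972 and 0.773 in HAMSA, 0.908, 0.946, 0.685 and 0.779 in HAMSB, 0.850, 0.788, 0.856 and 0.731 in HAMS, and 1.03, 1.11, 1.31 and 1.28 in NP. Every NP library had more Myc than Max reads per kb and every starch library had fewer. Whether the ratio exceeds 1 depends on the exon lengths used, 2717 bases for Myc and 3598 for Max over all annotated transcripts. In raw counts Max exceeded Myc in all 16 libraries, with 5462 and 5278 in NP 5. The separation of NP from the starch diets does not depend on these lengths. The highest starch library was HAMSA 3 at 0.972, and the lowest NP library was NP 1 at 1.03. Across the 16 libraries Myc and Max had a Pearson r of 0.24, and the r of their deviations from the diet means was 0.77, where both values share the library and its scaling.

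**Figure D3:**
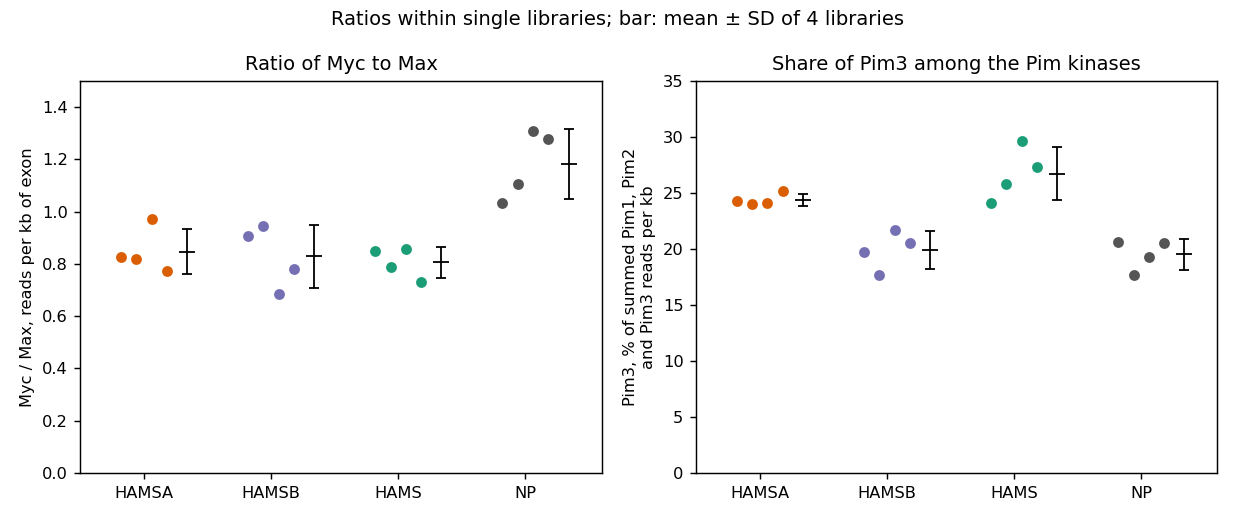
Ratio of Myc to Max reads per kb (left) and share of Pim3 in the summed Pim1, Pim2 and Pim3 reads per kb in percent (right), for single libraries by diet, with bars for mean and SD of 4 libraries. NP libraries lie above all others in the left panel, and HAMSA and HAMS libraries lie above HAMSB and NP in the right panel.

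The antagonists gave no call. Mxd1, induced as cells leave the cycle and differentiate, lies on chromosome 6 at 86647042 to 86669161 on the minus strand and overlaps Gm44292 on that strand. Mxd1 ranged from 26.6 to 36.2 CPM in HAMSA, 22.1 to 38.0 in HAMSB, 24.2 to 30.0 in HAMS and 24.1 to 31.7 in NP, and all diets overlapped. Its log2 fold changes lay between -0.04 and 0.26. Mxi1 lies on chromosome 19 at 53310518 to 53375810 on the plus strand. It had 18.3, 20.3, 18.04 and 20.7 CPM in the HAMSA libraries, 17.4, 17.6, 16.2 and 16.2 CPM in HAMSB, 13.3, 19.7, 17.9 and 18.9 CPM in HAMS, and 16.7, 17.3, 17.2 and 13.5 CPM in NP.

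HAMSA libraries lay above all HAMSB and NP libraries for Mxi1, but the tests did not pass. The log2 fold change was 0.26 ± 0.12 in HAMSA against NP and 0.20 ± 0.12 in HAMSA against HAMSB (adjusted p of 0.201 and 0.350, edgeR). Summed per kb, the antagonists reached 0.150 to 0.239 of Myc in HAMSA libraries, 0.197 to 0.276 in HAMSB, 0.156 to 0.230 in HAMS and 0.120 to 0.195 in NP. HAMSB libraries lay above all NP libraries for this ratio, by a small gap between 0.197 and 0.195, and the other diets overlapped NP.

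Pim1, the STAT-induced member of the family, showed its lowest values on HAMS. It lies on chromosome 17 at 29490753 to 29496112 on the plus strand, with Gm26885 on the other strand. Pim1 had 60.2, 61.0, 41.5 and 41.3 CPM in the HAMSA libraries, 50.2, 56.0, 39.2 and 45.8 CPM in HAMSB, 42.0, 31.8, 32.2 and 29.9 CPM in HAMS, and 41.9, 50.2, 44.5 and 38.2 CPM in NP. HAMS 1 stood at 42.0 CPM among the other diets, and the other 3 HAMS libraries lay below every library of HAMSA, HAMSB and NP.

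The Pim1 log2 fold change was 0.59 ± 0.16 in HAMSA against HAMS and 0.49 ± 0.16 in HAMSB against HAMS, with adjusted p of 0.300 and 0.150 (edgeR). In HAMS against NP it was -0.36 ± 0.16 with an adjusted p of 0.212 (edgeR). Each 95% interval left out 0, but none of the 16 omissions or 13 other settings called Pim1 in any pair. In the test for any difference among the 4 diets Pim1 had an adjusted p of 0.115 with edgeR and of 0.0358 with DESeq2. DESeq2 called 12.6% of all genes in that test, against 3.78% with edgeR. The 10 T cell markers, all detected in every library, summed to 123 to 243 CPM in HAMSA, 104 to 295 in HAMSB, 72.8 to 161 in HAMS and 80.0 to 110 in NP. Lck made up much of this sum, with 55.5 to 115 CPM over the libraries before TMM scaling. The median log2 fold change of the 10 markers against NP was 2.74 in HAMSA, 3.07 in HAMSB and 1.54 in HAMS. All 10 had higher values in HAMSA and HAMSB, and 9 of 10 in HAMS. Of these markers 1 was called in HAMSA against NP, beside 1.41% of all genes. None was called in HAMSB or HAMS against NP, beside 0.0732% and 4.33%. The 15 cell cycle genes summed to 539 to 1030 CPM in HAMSA, 422 to 811 in HAMSB, 420 to 573 in HAMS and 464 to 550 in NP. The part of T cells or of dividing cells in the Pim1 values was not tested.

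Pim2, a kinase of B cell survival, lies on chromosome X at 7878262 to 7883432 on the plus strand and was the most abundant Pim transcript in every library. It ranged from 94.7 to 122 CPM in HAMSA, 99.4 to 115 in HAMSB, 67.5 to 104 in HAMS and 87.5 to 110 in NP, with overlap between all diets. The lowest library was HAMS 5 at 67.5 CPM. Log2 fold changes were 0.25 in HAMSA against HAMS and 0.24 in HAMSB against HAMS, -0.13 in HAMS against NP, and 0.01 in HAMSA against HAMSB, and all 95% intervals included 0.

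Pim3 made up a larger share of the Pim transcripts on HAMSA and HAMS than on HAMSB and NP. Pim3 made up 24.3, 24.01, 24.1 and 25.2% of the summed Pim reads per kb in the HAMSA libraries, 19.8, 17.7, 21.7 and 20.6% in HAMSB, 24.1, 25.8, 29.7 and 27.3% in HAMS, and 20.6, 17.7, 19.3 and 20.5% in NP. All HAMSA and HAMS libraries lay above all HAMSB and NP libraries. Pim2 made up 49.5 to 59.2% in HAMSA, 56.1 to 60.5% in HAMSB, 50.4 to 58.0% in HAMS and 56.8 to 60.7% in NP, and Pim1 made up the rest. Since these shares rest on the same counts as the Pim3 calls, they are a description with no test.

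Each member was set beside the genes whose level followed it most closely over the 16 libraries, among 8600 genes searched, by Pearson r of log2 CPM. For Max these were Katna1, a microtubule-severing subunit, with an r of 0.95, Ube2z with 0.94 and Dusp2, an immediate early phosphatase of MAP kinases, with 0.94. Within diets, as deviations from diet means, their r with Max was 0.86, 0.85 and 0.74. For Pim3 they were Irf2bp1 with 0.93, Mon1a with 0.90 and Junb, an AP-1 subunit and immediate early gene, with 0.90, and within diets 0.80, 0.72 and 0.51. Max and Pim3 had an r of 0.74 with each other over all libraries and -0.15 within diets, so that they were high in the same diets and did not move together among the libraries of a diet.

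For Myc the closest genes were Lax1, a lymphocyte adaptor, with an r of 0.92, Tsga13 with 0.91 and Tsnax with 0.89. For Pim1 they were Myb, a transcription factor of progenitors and dividing cells, with 0.89, Fam53b with 0.87 and Dlgap5, a spindle protein, with 0.85. For Pim2 they were Slc2a8 with 0.91, B3gnt8 with 0.88 and Mlst8, a subunit of both mTOR complexes, with 0.88. For Mxi1 they were Ssbp3 with 0.83, Ptplb with 0.79 and Cbx3 with 0.79. For Mxd1 they were Cd8a, which marks cytotoxic T cells, with 0.84, Anxa2 with 0.83 and Anxa1 with 0.83. The T cell signal given above for Pim1 therefore stands beside Mxd1 too, and its part in Mxd1 was not tested.

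Immediate early genes, which respond within minutes to signals and to handling of cells, were high in the same diets as Max and Pim3. The 25 genes of the list summed to 2585 to 2840 CPM in HAMSA, 1782 to 1923 in HAMSB, 2382 to 2995 in HAMS and 1732 to 1864 in NP. All HAMSA and HAMS libraries lay above all HAMSB and NP libraries. Of the 25 genes, 9 rose in HAMSA against NP, where 1.41% of all genes were called, and 10 rose in HAMS against NP, where 4.33% were. In HAMSA against HAMSB 7 of them rose, beside 0.779% of all genes called, and 10 fell in HAMSB against HAMS, beside 1.68%. None passed in HAMSA against HAMS or HAMSB against NP. The 20 heat shock genes summed to 3621 to 7839 CPM in HAMSA, 2915 to 3600 in HAMSB, 4832 to 8942 in HAMS and 3638 to 4284 in NP, with 15 higher calls in HAMS against NP, 1 in HAMSA against NP and 15 lower calls in HAMSB against HAMS. All 25 and all 20 genes were detected in every library, and the part of either response in the Max and Pim3 values was not tested.

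**Figure D4:**
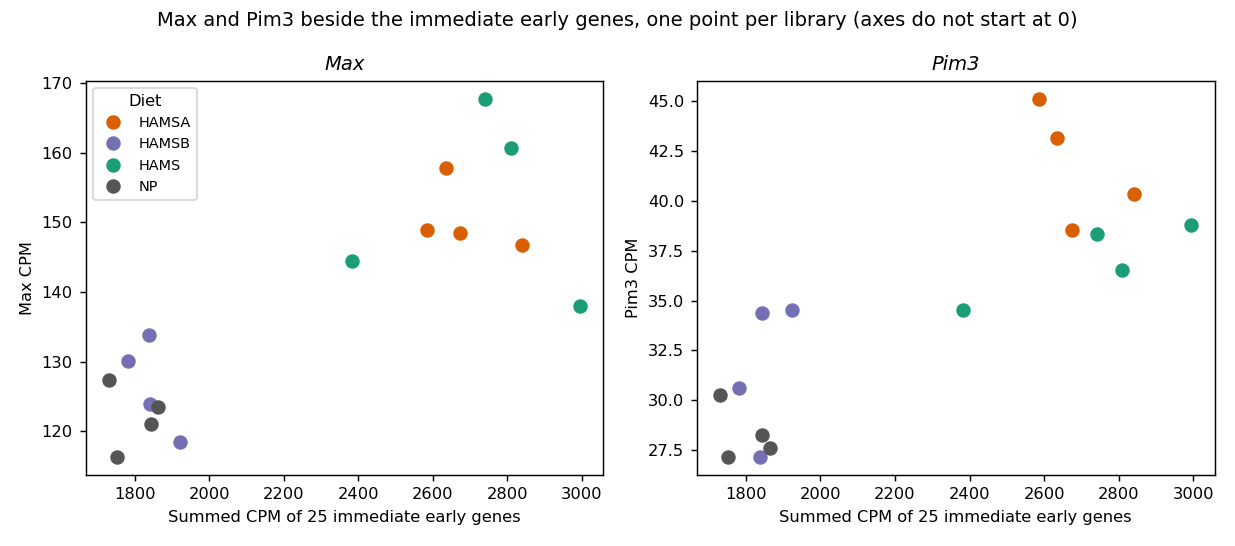
Max (left) and Pim3 (right) in CPM on the vertical axis against the summed CPM of 25 immediate early genes on the horizontal axis, with a point for each library coloured by diet; the axes do not start at 0. HAMSA and HAMS libraries form a group at 2382 to 2995 summed CPM and HAMSB and NP libraries a group at 1732 to 1923.

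Other genes of the Myc network gave no call. The list holds further Myc and Mxd proteins, the Max partners Mnt and Mga, the Mlx branch and cofactors such as Trrap, and 15 of its 16 genes were tested. None passed in any of the 6 pairs with edgeR, and between 0 and 3 had an unadjusted p under 0.05 in a pair. Its median log2 fold change was -0.04 in HAMSB against HAMS, 0.05 in HAMSA against HAMS, 0.11 in HAMSA against HAMSB, 0.06 in HAMS against NP, 0.11 in HAMSA against NP and -0.01 in HAMSB against NP. The medians of all genes tested were between 0.00 and 0.01 in size. The smallest p belonged to Mycbp, a Myc-binding protein, in HAMS against NP, with 13.98 ± 1.249 CPM in HAMS and 10.5 ± 1.149 CPM in NP, a log2 fold change of 0.41 and an adjusted p of 0.0701 (edgeR).

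None of the 10 genes of Myc protein turnover passed with edgeR either, and 0 to 3 had an unadjusted p under 0.05 in a pair. Fbxw7 and Skp2, which encode ubiquitin ligase subunits for Myc, did not pass in any pair. These are transcript levels, and Myc protein was not measured.

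Of 35 Myc target genes, chosen among ribosome assembly, nucleotide, polyamine and cell cycle genes, 1 passed in 1 pair. That pair was HAMS against NP, where 4.33% of all genes tested passed, so the count is no more than the share over all genes. Ccnd2, which encodes cyclin D2, had 94.3, 146, 133 and 206 CPM in HAMS libraries and 87.3, 65.0, 68.3 and 53.1 CPM in NP libraries. HAMS lay above NP throughout, with a log2 fold change of 1.08 ± 0.23 and an adjusted p of 0.0154 (edgeR). That call was lost without HAMS 6, NP 3, NP 4 or NP 5, and the log2 fold change over all 16 omissions was 0.86 to 1.23.

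No other target passed, and in 4 of the 6 pairs most of the 35 values lay on the same side of 0. In HAMSA against NP 27 of the 35 had higher values, with a median log2 fold change of 0.18, and 13 had an unadjusted p under 0.05, against 25.1% of all genes. In HAMS against NP 27 had higher values, with a median of 0.13. In HAMSA against HAMSB 29 had higher values, with a median of 0.13, and in HAMSB against HAMS 25 had lower values, with a median of -0.16. In HAMSA against HAMS 19 were higher and 16 lower, with a median of 0.01, and in HAMSB against NP 16 were higher and 19 lower, with a median of -0.03. Rrs1, a ribosome assembly factor, had 37.0 ± 2.08 CPM in HAMSA and 28.7 ± 2.43 CPM in HAMSB, and its adjusted p of 0.0563 (edgeR) missed the threshold.

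None of the 15 regulators upstream of Pim transcription, the JAK kinases, STAT factors, their SOCS inhibitors and cytokine receptors, passed in any pair with edgeR, and 0 to 4 had an unadjusted p under 0.05. Socs1, a STAT-induced feedback inhibitor of JAK kinases, had 5.61 ± 0.83 CPM in HAMSA and 3.22 ± 0.86 CPM in NP, with a log2 fold change of 0.80 ± 0.23 and an adjusted p of 0.0706 (edgeR). Jak3, the kinase of the common gamma chain, had 159 ± 9.22 CPM in HAMSA, 168 ± 20.3 CPM in HAMS and 215 ± 19.1 CPM in NP. Its log2 fold changes of -0.43 and -0.35 against NP had adjusted p of 0.0921 and 0.172 (edgeR). Stat5a, a direct activator of Pim1 transcription, gave a log2 fold change of -0.24 in HAMSA against HAMSB, with an adjusted p of 0.203 (edgeR).

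Among the 15 Pim substrates and effectors, the called genes were Cdkn1a, Map3k5, Ybx1, Nfatc1 and Eif4ebp1. Cdkn1a, which encodes the cell cycle inhibitor p21 that Pim kinases phosphorylate, fell in HAMSB against HAMS and rose in HAMS against NP. It had 6.21, 7.04, 6.40 and 5.65 CPM in the HAMSB libraries, 12.9, 9.67, 8.88 and 14.1 CPM in HAMS, and 8.53, 5.43, 6.55 and 6.27 CPM in NP. HAMS lay above all HAMSB and NP libraries. HAMSA libraries had 9.42, 8.55, 10.1 and 8.26 CPM, above all HAMSB libraries and overlapping HAMS and NP. HAMSA against HAMSB did not pass for Cdkn1a (adjusted p of 0.155, edgeR). The log2 fold change was -0.85 ± 0.17 in HAMSB against HAMS and 0.77 ± 0.17 in HAMS against NP, with adjusted p of 0.0160 and 0.0183 (edgeR). Those calls were lost in 3 and 4 of 16 omissions.

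Map3k5, which encodes the stress kinase ASK1 that Pim1 inhibits, fell in both HAMS and HAMSA against NP. It had 104, 93.4, 108 and 112 CPM in HAMSA libraries, 134, 115, 124 and 121 CPM in HAMSB, 98.6, 104, 119 and 101 CPM in HAMS, and 140, 156, 151 and 132 CPM in NP. HAMSA and HAMS lay below all NP libraries, and HAMSB 1 overlapped NP. The log2 fold change was -0.45 ± 0.09 in HAMS against NP and -0.47 ± 0.09 in HAMSA against NP, with adjusted p of 0.00912 and 0.0291 (edgeR). The HAMS call held in all 16 omissions and the HAMSA call in 11.

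Ybx1, a cold shock domain protein that binds mRNA, rose in HAMSA against HAMSB. It had 360, 419, 371 and 364 CPM in HAMSA libraries and 281, 278, 190 and 268 CPM in HAMSB libraries, a log2 fold change of 0.57 ± 0.12 with an adjusted p of 0.0336 (edgeR). HAMSB 5 was far below the other HAMSB libraries, and without it the value was 0.45 with an adjusted p of 0.0829 (edgeR). The Ybx1 call held in 6 of 16 omissions. Ybx1 had 298, 354, 359 and 327 CPM in HAMS libraries and 344, 357, 356 and 303 CPM in NP libraries. All HAMSB libraries lay below every HAMS and NP library, and all HAMSA libraries lay above them. Ybx1 has processed pseudogenes close to it in sequence, so its counts are less certain.

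Nfatc1, a calcium-dependent transcription factor, and Eif4ebp1, the repressor of cap-dependent translation, were called near the threshold. Nfatc1 fell in HAMS against NP, with 222, 234, 225 and 202 CPM in HAMS libraries and 262, 267, 291 and 277 CPM in NP libraries. The log2 fold change was -0.31 with an adjusted p of 0.0426 (edgeR). Nfatc1 had 237, 215, 209 and 254 CPM in HAMSA libraries, also below all NP libraries, and HAMSA against NP was not called. Eif4ebp1 rose in HAMSA against NP, with 16.2, 22.8, 22.9 and 16.3 CPM in HAMSA libraries and 12.9, 11.7, 11.3 and 11.9 CPM in NP libraries, a log2 fold change of 0.71 and an adjusted p of 0.04995 (edgeR). The libraries did not overlap in either called pair, and each call held in 4 of 16 omissions. In all, the 15 substrates and effectors gave 1 call in HAMSB against HAMS, beside 1.68% of all genes, and 1 in HAMSA against HAMSB, beside 0.779%. They gave 3 calls in HAMS against NP, beside 4.33% of all genes, and 2 in HAMSA against NP, beside 1.41%. Their median log2 fold changes lay between -0.06 and 0.10.

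**Figure D5:**
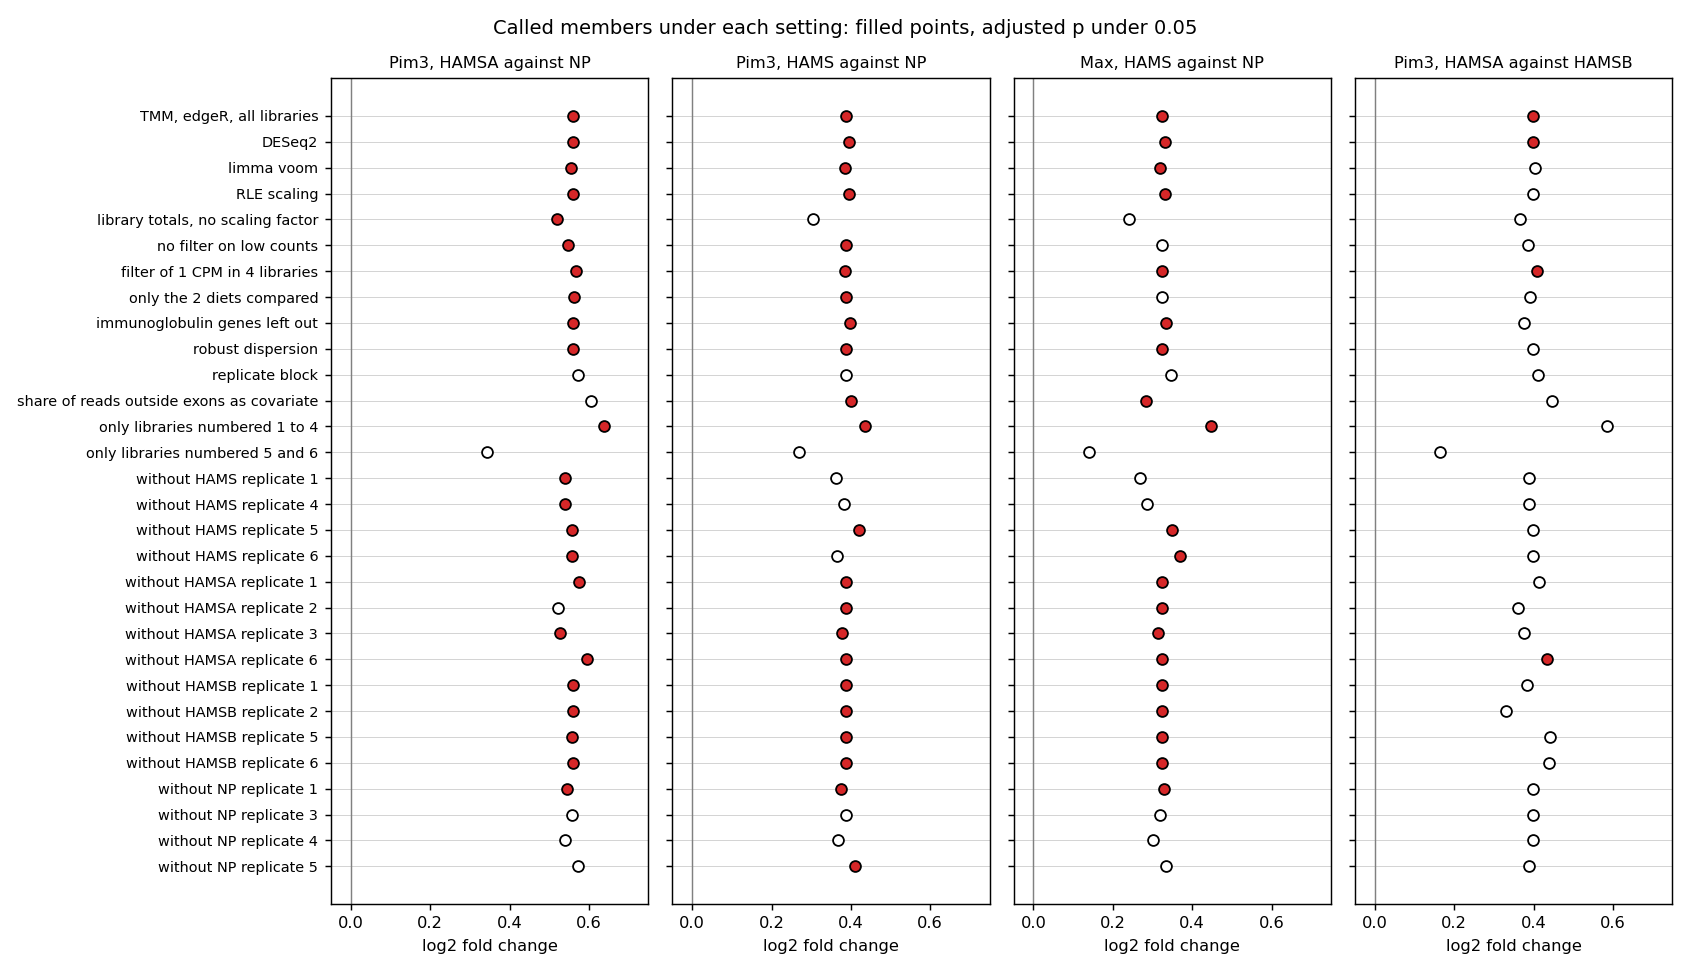
Log2 fold change (horizontal axis) of the 4 member results that passed, under every processing setting and omission of a library (rows), with filled points where the adjusted p stayed under 0.05. Pim3 in HAMSA against NP held in 12 of 16 omissions and Pim3 in HAMSA against HAMSB in 1.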

How the data were processed

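Poly(A) RNA-seq libraries of splenic B cells were compared, 4 for each of 4 diets. The authors deposited raw read counts per gene for 39179 genes, made with STAR, featureCounts and Subread, with edgeR and limma also listed, per the submitters' processing notes. Versions, genome build and annotation are not given in the sources used here, and coordinates and exon lengths come from GENCODE M21 (GRCm38). The design text gives both an N of 4 and triplicate, and 4 libraries per diet were analysed.

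The members, gene lists and tests were chosen with earlier results of these data known. R 4.3.3, edgeR 4.0.16, limma 3.58.1 and DESeq2 1.42.0 were used. The filterByExpr rule (count of at least 10) kept 15021 genes. After TMM scaling, all 16 libraries entered 1 quasi-likelihood fit with 12 residual degrees of freedom. The biological coefficient of variation was 22.1%. P-values are two-sided, Benjamini-Hochberg adjusted over all genes tested, with a threshold of 0.05, and intervals are 95% intervals of the fit. CPM values are TMM-scaled, and log2 CPM used for likeness has a prior count of 2. Genes named beside the members were those called in the lists, up to 2 with the smallest p where a list had no call, and the 3 genes most like each member among genes of average log2 CPM of at least 3, leaving out clone numbers, antigen receptor segments and pseudogenes. Omission of each library, DESeq2, limma-voom, other scalings and filters, a block for library numbers and subsets of numbers were tried. Scripts were tested on simulated data. Column sums equalled the deposited totals of assigned reads in all 16 libraries.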

Additional observations from a re-analysis of the deposited data

Results flagged for a closer look

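In 3 of the 52 groups of 4 libraries checked, over 13 genes, a single library stood far from the other 3, where chance gives about 5% of groups. Mxi1 in NP had 13.5 CPM in NP 5, and 16.7 to 17.3 CPM in the other NP libraries. Ybx1 in HAMSB had 190 CPM in HAMSB 5, and 268 to 281 CPM in the other HAMSB libraries. Nfatc1 in HAMSB had 239 CPM in HAMSB 2, and 259 to 263 CPM in the other HAMSB libraries.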

How the results depend on the processing

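The number of members called moved with the settings as follows. DESeq2 called 1 in HAMSB against HAMS (Max), beside 3.92% of all genes. It called 2 in HAMSA against HAMSB, beside 3.56%, and 2 in HAMSA against NP, beside 8.63%. In HAMSA against HAMSB the count was 0 with voom, RLE scaling, scaling by totals, no filter and a fit of only those diets. It was also 0 with immunoglobulin genes left out, robust fitting, the share of reads outside exons as covariate and within numbers 1 to 4. Over all genes these settings called from 0% with the covariate to 0.766% with robust fitting, against 0.779% in the main fit. In HAMS against NP the count was 0 with scaling by totals, beside 5.31% of all genes. It was 1 with no filter, beside 2.05%, and 1 with a fit of only those diets, beside 3.55%. In HAMSA against NP it was 0 with the covariate, beside 0.0599% of all genes, and 2 within numbers 1 to 4, beside 17.6%. Within numbers 5 and 6 NP and HAMSA had a single library each, so no count is given for their pairs. For any difference the count was 1 with totals, no filter or the covariate, beside 4.28%, 2.2% and 3.73% of all genes. It was 3 with DESeq2, which added Pim1, beside 12.6%. Over omissions of a library the counts ran from 0 to 1 in HAMSA against HAMSB, beside 0.0851 to 1.22% of all genes. They ran from 0 to 2 in HAMS against NP, beside 1.55 to 4.73%, and 0 to 2 in HAMSA against NP, beside 0 to 3.85%. For any difference they ran from 1 to 2, beside 1.7 to 4.61%. The causes were not tested, beyond the fewer libraries of the subsets.

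With library numbers as a replicate block, the count was 0 in HAMSA against HAMSB, HAMS against NP, HAMSA against NP and for any difference. Of all genes, 0.0133%, 2.52%, 0% and 1.76% were called with the block, in the same order. Max in HAMS against NP was then 0.35 (adjusted p of 0.0642), Pim3 in HAMS against NP 0.39 (0.0854) and Pim3 in HAMSA against NP 0.57 (0.121), all with edgeR. The deviations of 15 pairs of libraries with the same number correlated at -0.599 to 0.651, with a median of 0.107 and 9 of them over 0.1, against a median of -0.0383 and 31 of 81 over 0.1 for pairs with different numbers. Since the labels do not say what a number marks and not every pair was over 0.1, the libraries were not treated as paired, and 3 of 16 correlated best with their own number.

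Of the log2 fold changes that turned sign, none had passed. Pim2 in HAMSA against HAMSB was -0.00101 with voom, -0.0282 with totals, -0.00856 with no filter, -0.00418 with only those diets, -0.0181 without immunoglobulin genes, -0.0759 with the replicate block, -0.114 with the covariate and -0.209 within numbers 5 and 6. Pim2 in HAMSA against NP was -0.00081 with the covariate and -0.0860 within numbers 5 and 6, and in HAMS against NP 0.0311 within numbers 1 to 4. Mxi1 in HAMSB against HAMS was 0.0253 with totals and 0.0825 within numbers 1 to 4, and in HAMS against NP -0.0518 within numbers 1 to 4. Max in HAMSA against HAMS was 0.0199 with totals and 0.0750 within numbers 5 and 6, and in HAMSB against NP -0.0796 within numbers 5 and 6. Mxd1 in HAMSB against HAMS was -0.0564 with the replicate block and -0.0252 within numbers 5 and 6, in HAMSB against NP -0.0605 with the block, in HAMSA against HAMSB -0.0914 and in HAMSA against NP -0.0635 with the covariate, and in HAMS against NP 0.00809 within numbers 1 to 4 and 0.0393 within numbers 5 and 6. Myc in HAMSA against HAMS was -0.125 with the covariate and -0.0156 within numbers 1 to 4. Pim1 in HAMSA against HAMSB was -0.111 with the covariate and -0.0381 within numbers 5 and 6, and in HAMSA against NP -1.31e-06 with the covariate.

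Over omissions of a library, these values crossed 0 too. Max in HAMSA against HAMS ran from -0.0691 to 0.0148, Pim2 in HAMSA against HAMSB from -0.0727 to 0.0581, Myc in HAMSA against HAMS from -0.0576 to 0.114, and Mxi1 from -0.163 to 0.0118 in HAMSB against HAMS and from -0.0297 to 0.0901 in HAMSB against NP. Mxd1 ran from -0.107 to 0.0312 in HAMS against NP, from -0.0820 to 0.190 in HAMSB against HAMS and from -0.118 to 0.153 in HAMSB against NP. Under the settings other than omissions, 491 member values kept their direction and side of the threshold, 22 lost a call, 4 gained one and 29 turned sign. Only the 4 called results could lose a call. Of 13 such settings, Max in HAMS against NP kept its call in 8. Pim3 kept its call in 10 in HAMS against NP, 10 in HAMSA against NP and 2 in HAMSA against HAMSB. The fewest counts were those of Mxi1, 271 to 765 per library, where counting error is part of the spread.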
